A study of Mus musculus with 12 samples.

Results

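Eef1a2, the tissue-restricted paralog of the translation elongation factor gene Eef1a1, was examined in gonadal white adipose tissue (GWAT) by bulk RNA sequencing, together with Eef1a1 and with 4 other genes of the same step of translation, Eef1b2, Eef1d, Eef1g and Eef2. These 6 genes were taken by their symbols from the 55281 genes of the count table. Eef1a2 was selected on its own counts in HoipA-KO and WT libraries, since earlier results of these data showed it near the floor of detection in the controls and well above it in the knockouts, so its values are given as a description with no test. The other 5 genes were taken for their place in the elongation machinery.

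All mice carried floxed alleles of Hoip, the gene also called Rnf31. WT mice were Hoip fl/fl AdipoQ.Cre- and HoipA-KO mice were Hoip fl/fl AdipoQ.Cre+. The Adiponectin Cre acts in mature adipocytes, so macrophages, vessels, nerves and other cells of the tissue kept the gene. From 6 weeks of age male mice received the control diet (CD) with 14% fat or the high-fat diet (HFD) with 60% fat for 16 weeks, and were 22 to 24 weeks old at harvest. Each of the 4 groups, WT CD, WT HFD, HoipA-KO CD and HoipA-KO HFD, had 3 libraries, and each library was made from GWAT pooled from 3 mice.

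During elongation, eEF1A in its GTP form delivers aminoacyl-tRNA to the ribosome and leaves as the GDP form. The eEF1B complex, built from the subunits encoded by Eef1b2, Eef1d and Eef1g, exchanges that GDP for GTP, and eEF2 then moves the ribosome along the mRNA by a codon. Mammals have 2 eEF1A proteins that are nearly alike, of which Eef1a1 is used in almost every cell, while Eef1a2 replaces it in adult skeletal muscle, heart and neurons.

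Because the 2 paralogs are so alike, it matters that their reads can be told apart. Eef1a2 (ENSMUSG00000016349) lies on the minus strand of GRCm38 at chr2:181147653-181157014 and has 8 exons and 1389 coding bases, stop codon left out. Eef1a1 (ENSMUSG00000037742) lies on the minus strand at chr9:78478449-78489151, also with 8 exons, and has 1386 coding bases in the transcript used here. Of 1386 aligned coding bases, 1110 (80.1%) were identical and 276 differed. The first 90 coding bases of each transcript of the GENCODE M21 annotation, with the 15 bases that differ between them in capitals, show how these differences are spread along the sequence.
Eef1a1: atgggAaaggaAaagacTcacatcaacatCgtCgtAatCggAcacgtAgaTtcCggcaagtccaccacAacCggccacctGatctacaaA
Eef1a2: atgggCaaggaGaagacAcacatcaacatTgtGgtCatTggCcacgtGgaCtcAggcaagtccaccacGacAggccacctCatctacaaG
The longest run shared by the whole transcripts was 23 bases. The Eef1a2 transcript shared none of its 2054 stretches of 31 bases with Eef1a1 or with any other annotated gene, so the counts of Eef1a2 do not rest on sequence held in common with its abundant paralog.

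The other members were less clean in this respect. Eef1a1 shared at least 100 stretches of 31 bases with 14 other annotated genes, whose counts summed to 0.434% of its own. The named processed copy Eef1a1-ps1 had 1.24 to 4.48 normalized CPM over the 12 libraries and is uncertain, since it is a near copy. For Eef1d the genes sharing that many stretches held counts equal to 5.78% of its own, for Eef1g 0.947%, for Eef1b2 0.0966% and for Eef2 0.0408%.

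The starts of the paralogs also differed in composition. The RefSeq start of Eef1a1 lies inside the span of its GENCODE gene, and that of Eef1a2 at the end of its own. The 250 bases before the annotated start (RefSeq, GRCm38.p6) are shown for both, on the minus strand, with matches to GGGCGG on either strand in capitals, at chr2:181157016-181157265 for Eef1a2 and chr9:78481725-78481974 for Eef1a1.
Eef1a2: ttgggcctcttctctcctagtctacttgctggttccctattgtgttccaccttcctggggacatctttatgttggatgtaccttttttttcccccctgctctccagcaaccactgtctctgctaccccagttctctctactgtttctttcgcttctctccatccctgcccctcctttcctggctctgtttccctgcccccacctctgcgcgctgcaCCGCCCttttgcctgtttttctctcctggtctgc
Eef1a1: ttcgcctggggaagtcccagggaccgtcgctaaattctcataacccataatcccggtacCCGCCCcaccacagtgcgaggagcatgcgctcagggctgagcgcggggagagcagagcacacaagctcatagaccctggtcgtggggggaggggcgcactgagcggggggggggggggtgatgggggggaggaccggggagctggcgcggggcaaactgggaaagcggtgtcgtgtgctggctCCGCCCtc
In the 300 bases around the start, Eef1a2 had 8 CpG and 55.0% G and C, against 22 CpG and 66.7% for Eef1a1, 27 and 61.3% for Eef1b2, and 34 and 64.7% for Eef2. The medians over all promoters of that length were 7 CpG and 52.7%, so Eef1a2 lay near the median and the broadly used members above it. GGGCGG occurred once near Eef1a2, at 2 places near Eef1a1 and not in the windows of Eef1b2 and Eef2, and was present in 35.7% of 32851 promoters. CCAAT (37.4% of promoters) and GAGGAAGT (3.2%) matched in none of these 4 windows, while TATAAA (13.6%) and CACGTG (7.2%) each matched once, in that of Eef2. Both strands were searched, and a match or its absence describes letters only.

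Between 30513500 and 60540260 estimated counts per library were assigned to genes. A gene with 3 counts, taken here as the floor, had 0.0524 to 0.0996 CPM (read counts scaled to a common library size, with TMM factors over the 12 libraries). Levels in CPM are given for all 12 libraries. Tests used 11 libraries without WT CD replicate 3, as in the comparisons the authors deposited, and each result that rests on WT CD is given with that library where it differs. That library carried 7249 CPM of 8 germ cell markers and WT CD replicate 2 carried 15660.9 CPM of 10 markers of epididymal epithelium, tissues that lie beside this fat pad. HoipA-KO HFD replicate 1 had 1311 CPM of the epididymal markers, and the other libraries had at most 105 CPM. Rnf31 was at 12.01 to 20.9 CPM in WT CD, 18.2 to 20.03 in WT HFD, 17.7 to 21.8 in HoipA-KO CD and 18.8 to 22.5 in HoipA-KO HFD. Whole-tissue counts over the whole gene do not show a deletion confined to adipocytes, so this gene is no check of the genotype. Fewer cells of a type and less RNA per cell cannot be told apart in these bulk libraries.

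Eef1a2 was barely detected in GWAT of WT mice on CD and clearly present in HoipA-KO mice. In WT CD it had 0.0731, 0.0428 and 0.0524 CPM in replicates 1 to 3, from 3, 2 and 3 counts, all at or under the floor. In HoipA-KO CD it had 39.4, 38.6 and 36.3 CPM, from 1967, 2174 and 1775 counts. The 3 knockout pools on CD were thus close to each other and far above every WT library. In WT HFD the level was 0.531, 1.67 and 1.49 CPM, from 16, 87 and 71 counts. In HoipA-KO HFD it was 5.25, 29.9 and 2.17 CPM, from 283, 1347 and 122 counts, so replicate 2 stood near the HoipA-KO CD pools while replicates 1 and 3 lay between those and WT HFD.

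**Figure D1:**
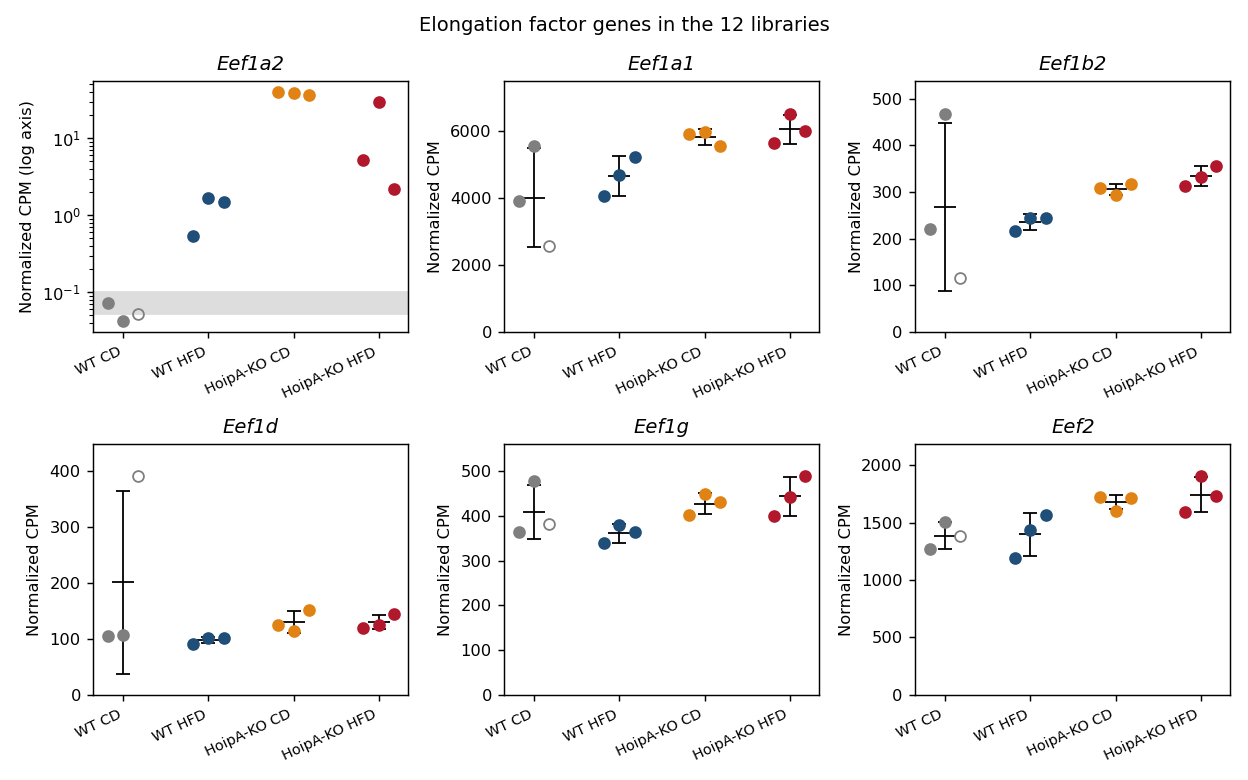
Normalized CPM of the 6 elongation factor genes in each of the 12 libraries, by group. Each point is a library of 3 pooled mice, open for WT CD replicate 3. Bars, drawn for the genes other than Eef1a2, give the mean ± SD of 3 libraries. The Eef1a2 panel has a log axis and a grey band that spans the floors of 3 counts, 0.0524 to 0.0996 CPM. Eef1a2 spans 0.0428 to 39.4 CPM and the other genes differ at most 4.27-fold between libraries.

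The summed counts of Eef1a2, scaled by library, were 692 times higher in HoipA-KO CD than in WT CD over 12 libraries (exact 95% interval 351 to 1603) and 670 times higher over 11 (287 to 2063). On HFD they were 8.43 times higher in HoipA-KO than in WT (7.21 to 9.91). These intervals cover counting error only and not the spread between pools. The fitted log2 fold change of HoipA-KO against WT was 9.35 on CD, a value that depends on the prior count, and 3.34 on HFD. Without HoipA-KO HFD replicate 2 the latter was 1.57. No overlap between genotypes was seen on either diet, which is what chose the gene. For comparison, 27.2% of the 18427 genes tested lay higher in HoipA-KO than in WT without overlap on CD over 11 libraries, and 20.6% on HFD.

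The levels of Eef1a2 by diet are a description as well, with no test. Both start from values that chose the gene, the low counts of WT CD and the high counts of HoipA-KO CD, and such a choice favours a higher value on HFD in WT mice and a lower one in HoipA-KO mice. In WT mice every HFD library was above every CD library, with a ratio of summed counts of 24.3 over 12 libraries (12.1 to 57.1) and a fitted log2 fold change of 4.39 (standard error 1.39). In HoipA-KO mice every HFD library was below every CD library, with a ratio of 0.296 (0.280 to 0.312) and a log2 fold change of -1.62 (standard error 0.79). Without HoipA-KO HFD replicate 2 the latter was -3.39. Higher values without overlap were seen for 24.2% of genes between diets in WT mice over 11 libraries and for 17.6% over 12, and lower ones for 2.51% in HoipA-KO mice. Nothing is read from these shares for Eef1a2.

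Eef1a1 remained the main eEF1A transcript in every library. It had 3921, 5535 and 2575 CPM in WT CD, 4049, 4676 and 5223 in WT HFD, 5916, 5971 and 5557 in HoipA-KO CD, and 5650.2, 6508 and 5993 in HoipA-KO HFD. WT CD replicate 3 was the lowest of all. Counts divided by coding length put the share of Eef1a2 in the sum of both paralogs at 0.00186%, 0.000772% and 0.00203% in WT CD and at 0.0131%, 0.0357% and 0.0284% in WT HFD. The share was 0.660%, 0.642% and 0.648% in HoipA-KO CD, and 0.0926%, 0.456% and 0.0361% in HoipA-KO HFD. The Wilson 95% interval of the highest share, computed from unscaled counts, was 0.633% to 0.692%, and that of the lowest was 0.000212% to 0.00282%. Eef1a2 therefore stayed under 1% of eEF1A transcripts in all 12 libraries.

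Per coding kilobase, the median CPM over the 12 libraries fell in the order Eef1a1 (4001), Eef2 (614), Eef1b2 (445), Eef1g (306), Eef1d (138) and Eef1a2 (1.382). Eef1a1 stood above all others in each library, with 1858 to 4695 CPM per coding kilobase. From Eef2 to Eef1d neighbours in the order overlapped, and Eef1a2 lay below all others in each library. Eef2 ranged from 464 to 739 and Eef1b2 from 173 to 693, and in WT CD replicate 2 Eef1b2 (693) was above Eef2 (584). Eef1g ranged from 259 to 373 and fell within the range of Eef1b2. Eef1d ranged from 108 to 463, the top value being WT CD replicate 3 and the next 179, so that it overlapped with Eef1g in that library's value alone, and its place is uncertain because the coding length of its 15 annotated transcripts runs from 303 to 1980 bases.

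The subunits of eEF1B showed small differences between genotypes next to those of Eef1a2. Eef1b2, which encodes the catalytic exchange subunit, had 219.7, 467 and 117 CPM in WT CD and 308, 293 and 317 in HoipA-KO CD. The WT CD pools thus bracketed the knockout ones. On HFD it had 215, 245 and 245 CPM in WT and 312, 333 and 355 in HoipA-KO, with no overlap. Eef1d, the gene of another exchange subunit, had 105, 107 and 390.4 CPM in WT CD, of which the last is replicate 3, and 124, 113 and 151 in HoipA-KO CD. On HFD it had 91.5, 101 and 101 CPM in WT and 119.5, 126 and 144 in HoipA-KO. Apart from WT CD replicate 3, every knockout library was above every WT library. Eef1g, the gene of the structural subunit, had 365, 478 and 382 CPM in WT CD, 402, 449 and 432 in HoipA-KO CD, 339, 381 and 364 in WT HFD, and 400.4, 443 and 488 in HoipA-KO HFD. It varied least of all members, 1.44-fold between the lowest and the highest library.

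Eef2, the gene of the translocation factor, had 1266, 1504 and 1386 CPM in WT CD and 1719, 1604 and 1714 in HoipA-KO CD. On HFD it had 1194, 1439 and 1563 CPM in WT and 1595, 1902 and 1734 in HoipA-KO. Each knockout library was above each WT library of the same diet, by a small margin. Over the 12 libraries the highest level was 1.59 times the lowest for Eef2, 2.53 times for Eef1a1, 4.002 times for Eef1b2 and 4.27 times for Eef1d. Without WT CD replicate 3 these ratios were 1.66 for Eef1a1, 2.17 for Eef1b2 and 1.65 for Eef1d.

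None of these 5 genes passed the threshold, an adjusted p of 0.05, between genotypes on CD, where 37.7% of 18427 genes did (edgeR, quasi-likelihood, Benjamini-Hochberg). The log2 fold change of HoipA-KO against WT on CD was 0.33 for Eef1a1 (standard error 0.23, adjusted p = 0.287), 0.32 for Eef1d (0.15, adjusted p = 0.122) and 0.31 for Eef2 (0.20, adjusted p = 0.236). It was 0.055 for Eef1g (0.18, adjusted p = 0.830) and -0.14 for Eef1b2 (0.27, adjusted p = 0.709). The values of Eef1b2 and Eef1d turned with the choice of WT CD libraries, to 0.17 and -0.69 over 12 libraries. When WT CD was represented by replicates 1 and 3, Eef1b2 passed in the other direction (0.84, adjusted p = 0.0225, edgeR). Its log2 fold change was -0.60 without WT CD replicate 1 and 0.52 without WT CD replicate 2, each against a single WT CD library. The first of these is set against replicate 2, which carries the epididymal transcripts. The direction of Eef1b2 on CD was thus set by the WT pools taken.

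On HFD none of the 5 passed either, where 11.8% of genes did, 4.2% higher and 7.62% lower. All 5 had higher estimates in HoipA-KO, with log2 fold changes of 0.52 for Eef1b2 (standard error 0.24, adjusted p = 0.167), 0.42 for Eef1d (0.14, adjusted p = 0.0683), 0.40 for Eef1a1 (0.21, adjusted p = 0.218), 0.34 for Eef2 (0.17, adjusted p = 0.213) and 0.32 for Eef1g (0.16, adjusted p = 0.204, edgeR). All 5 were higher in HoipA-KO than in WT without overlap of the libraries, against 20.6% of all genes. On CD, Eef1a1, Eef1d and Eef2 were higher without overlap over 11 libraries, against 27.2% of genes, and Eef1a1 and Eef2 over 12, against 20.5%. None was lower without overlap over 12, as 17.9% of genes were. The median log2 fold change of the 5 was 0.31 on CD and 0.40 on HFD, beside -0.055 and 0.058 over all genes tested. A value that misses the threshold does not show that the genotypes are alike.

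Eef1d on HFD was the value nearest to the threshold. It passed narrowly in edgeR when the fit held only the groups compared (0.42, adjusted p = 0.0497) and when the replicate number was a block (0.42, adjusted p = 0.0494). With DESeq2's Wald test it also passed (0.44, adjusted p = 0.0077). Eef1b2 passed on HFD in the fit of only the groups compared (0.52, adjusted p = 0.0339, edgeR). In the fits without WT CD replicate 1 or 2, which hold a single WT CD library, it had 0.51 and 0.52.

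**Figure D2:**
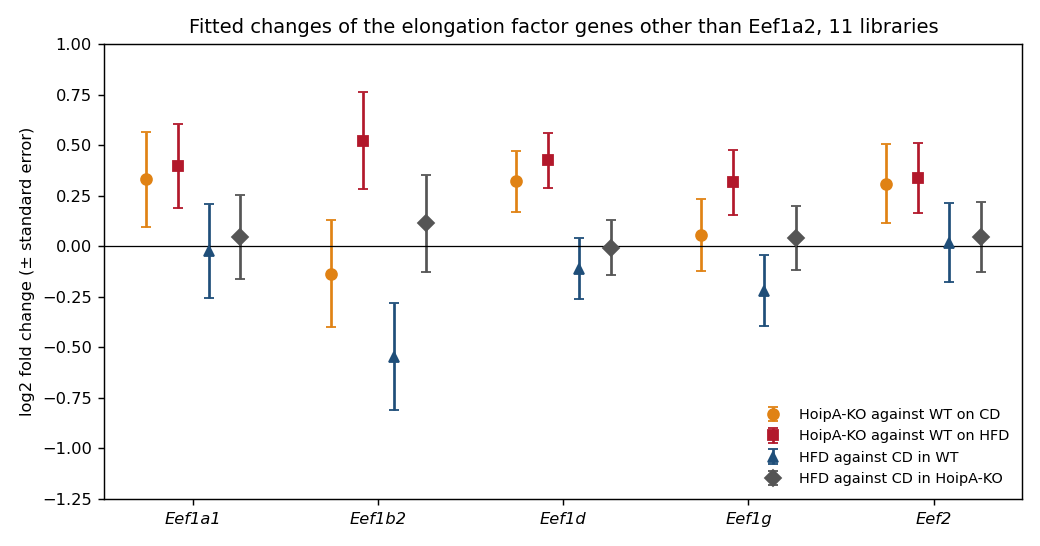
Fitted log2 fold changes with their standard errors for Eef1a1, Eef1b2, Eef1d, Eef1g and Eef2 in the comparisons of genotype and of diet, from 1 edgeR model of 11 libraries. The values lie between -0.55 and 0.52, none passed an adjusted p of 0.05, and the 5 values for HoipA-KO against WT on HFD are all above 0.

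None of the same 5 genes passed between the diets in WT mice, where 14.8% of all genes did. Their log2 fold changes were -0.55 for Eef1b2 (standard error 0.27, adjusted p = 0.185, edgeR), -0.22 for Eef1g, -0.11 for Eef1d, -0.022 for Eef1a1 and 0.017 for Eef2, with a median of -0.11 beside 0.0036 over all genes. Eef1d was lower on HFD without overlap, as 18.2% of genes were over 11 libraries and 9.67% over 12. In HoipA-KO mice no gene of the 18427 passed between HFD and CD in edgeR's test (0.0%), 415 had an unadjusted p under 0.05, and DESeq2's Wald test called 7. There the 5 genes had values from -0.0079 for Eef1d to 0.11 for Eef1b2. The difference of the genotype effects between the diets, tested as an interaction for the 5 genes, ranged from 0.027 for Eef2 to 0.66 for Eef1b2. The lowest adjusted p was 0.301, for Eef1b2, while 3.91% of genes passed this test in edgeR, 0.331% with a higher and 3.58% with a lower value.

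Eef1b2 in WT mice had a log2 fold change between diets of -0.98 without WT CD replicate 1 and 0.11 without replicate 2. Each of these fits holds a single WT CD library.

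The wider machinery was followed through 32 further genes, of which 12 encode other factors of elongation and its neighbouring steps, 15 enzymes that modify elongation factors and 5 factors of mitochondrial elongation. On CD 5 of the 32 rose and 5 fell in HoipA-KO against WT, beside 18.9% of all genes that rose and 18.8% that fell, with a median log2 fold change of 0.11. On HFD 3 rose and none fell (median 0.088, with 4.2% and 7.62% of all genes). In WT mice 1 rose and 3 fell with HFD (median -0.013, with 9.35% and 5.47%). In HoipA-KO mice none passed between diets, and none passed the interaction. These counts depended on single pools. On CD 6 genes passed without HoipA-KO CD replicate 1. On HFD none passed without 1 of WT HFD replicates 1 and 2 or of HoipA-KO HFD replicates 2 and 3, and 1 passed without HoipA-KO CD replicate 1, 2 or 3. Between diets in WT none passed without WT HFD replicate 2 or 3, 2 without WT HFD replicate 1, and 1 without WT CD replicate 2 or HoipA-KO CD replicate 1. Fits without WT CD replicate 1 or 2 hold a single WT CD library, so their counts are not given here.

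Among the enzymes that modify elongation factors, Eef1akmt4 and Eef1akmt3, which encode lysine methyltransferases of eEF1A, rose most on CD. Eef1akmt4 had 4.29, 3.40 and 2.18 CPM in WT CD and 9.28, 10.9 and 10.7 in HoipA-KO CD, and its log2 fold change was 1.46 ± 0.25 (SE, adjusted p = 0.00200, edgeR). Eef1akmt3 stayed below 1 CPM throughout, at 0.146, 0.0428 and 0 CPM in WT CD and 0.501, 0.711 and 0.573 in HoipA-KO CD (2.68, standard error 0.58, adjusted p = 0.00644, edgeR). Dhps encodes deoxyhypusine synthase, which starts the modification of the elongation factor eIF5A. It had 13.6, 14.5 and 10.3 CPM in WT CD and 25.8, 26.6 and 27.3 in HoipA-KO CD (0.95, standard error 0.14, adjusted p = 0.00111, edgeR). On HFD Dhps had 14.6, 16.0 and 17.8 CPM in WT and 22.0, 26.0 and 25.9 in HoipA-KO (0.63, adjusted p = 0.0172, edgeR). The libraries of the genotypes did not overlap for any of these genes. The rise of Eef1akmt4 and Dhps on CD passed under every alternative tried. That of Eef1akmt3 passed wherever it was tested, but the filter of at least 10 counts in every library left it out. The rise of Dhps on HFD was lost over 12 libraries (0.61).

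The falls on CD were less stable. Gspt2, which encodes a release factor GTPase related to eEF1A, had 7.77, 39.9 and 7.50 CPM in WT CD and 5.11, 3.02 and 5.87 in HoipA-KO CD (log2 fold change -2.33, adjusted p = 0.0113, edgeR). WT CD replicate 2, which carries the epididymal transcripts, set this value, and without it the log2 fold change was -0.70 and no longer passed. Tsfm and Gfm2, which encode a mitochondrial elongation factor and a mitochondrial ribosome recycling factor, fell by 0.60 and 0.58 (adjusted p = 0.0302 and 0.00683, edgeR). Over 12 libraries both were lost, with -0.39 and -0.46, and Tsfm was also lost without WT CD replicate 1 or HoipA-KO CD replicate 1 or 2.

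On HFD, Tpt1, which encodes the translationally controlled tumor protein, rose in HoipA-KO. It had 1386, 1677 and 1882 CPM in WT HFD and 2451, 3139 and 3105 in HoipA-KO HFD (log2 fold change 0.83, adjusted p = 0.0398, edgeR). For Eefsec, the gene of the elongation factor for selenocysteine, it was 0.44 (adjusted p = 0.0484, edgeR). Both calls were lost over 12 libraries (0.81 and 0.42). In WT mice Eef1akmt4 rose with HFD (log2 fold change 0.87, adjusted p = 0.0405, edgeR), and Gspt2, Eef1akmt2 and Gfm2 fell by 2.48, 0.63 and 0.44 (adjusted p = 0.0224, 0.0365 and 0.0463). Without WT CD replicate 2 Gspt2 fell by 0.85 and was lost, and over 12 libraries Eef1akmt2 and Gfm2 were lost as well (-0.38 and -0.29). The calls on HFD of Tpt1, Dhps and Eefsec were each lost without 1 of WT HFD replicates 1 and 2 or of HoipA-KO HFD replicates 2 and 3, and the diet calls of Eef1akmt4, Gspt2, Eef1akmt2 and Gfm2 in WT mice without WT CD replicate 2 or WT HFD replicate 2 or 3.

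The pattern of Eef1a2 over the 12 libraries was compared with that of 15750 genes with a mean of at least 1 CPM. Likeness was measured as the root mean square difference of log2(CPM + 0.1), each gene centred on its own mean. The closest were Clec4d (0.56), Serpinb9b (0.65), A530064D06Rik (0.79), Mmp12 (0.97), Itgb2 (1.05) and Gm49339 (1.10). All share the same 12 libraries with Eef1a2, and this is a description with no test. Clec4d encodes a C-type lectin receptor of myeloid cells and had 0.428 to 1.90 CPM in WT CD, 4.58 to 17.5 in WT HFD and 177 to 304 in HoipA-KO CD. In HoipA-KO HFD it had 47.1, 198 and 27.1 CPM, with the same pool on top as for Eef1a2. Mmp12, the gene of macrophage metalloelastase, had 5.43 to 25.6 CPM in WT CD, 202 to 956 in WT HFD, 3348 to 6041 in HoipA-KO CD, and 732, 4725 and 601 in HoipA-KO HFD. Itgb2, the gene of the beta chain of leukocyte integrins, had 371, 1195 and 421 CPM in HoipA-KO HFD. Over 11 libraries 5 of these 6 genes were again the closest, and with a pseudocount of 1 CPM only A530064D06Rik was.

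**Figure D3:**
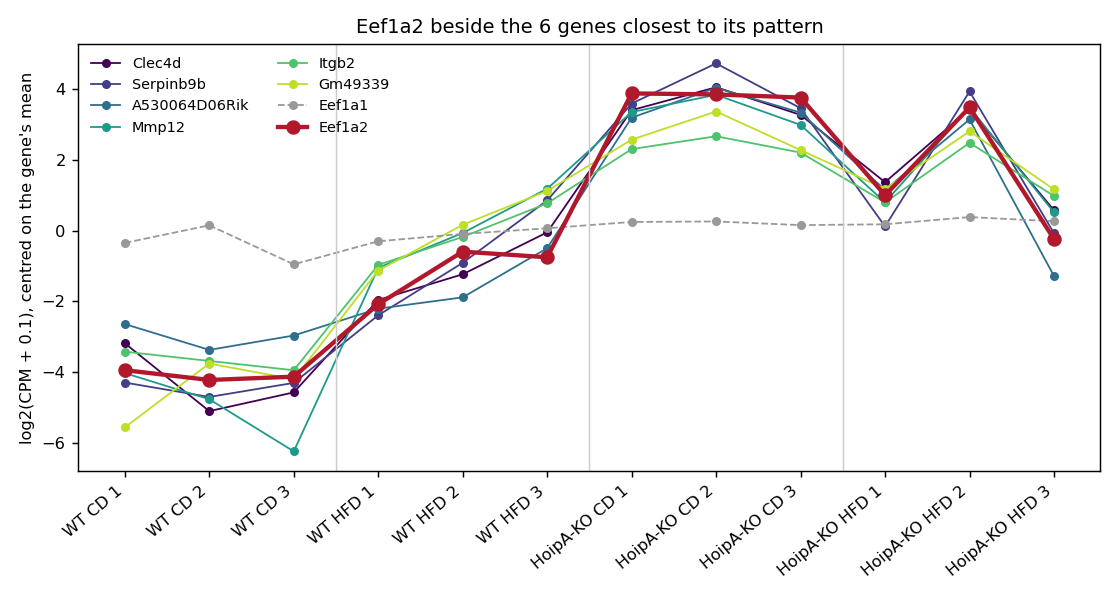
log2(CPM + 0.1) of Eef1a2, of the 6 genes closest to its pattern and of Eef1a1 in the 12 libraries, each centred on its own mean. The lines of Eef1a2 and the 6 genes are low in WT CD, intermediate in WT HFD, high in HoipA-KO CD and high in HoipA-KO HFD replicate 2 only among the 3 pools of that group, while the dashed line of Eef1a1 is nearly flat.

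The other members had different neighbours. The genes closest to Eef1a1 were Rpl4 (0.063), Hnrnpa1 (0.069) and Tm9sf1 (0.073), and those closest to Eef1b2 were the ribosomal protein genes Rpl5 (0.071) and Rps3a1 (0.094) and Gpx8 (0.13). Rpl4 had 396 CPM in WT CD replicate 3 and 631 to 980 in the others, like Eef1a1 lowest in that library. For Eef1d they were Ruvbl2 (0.085), Ube2s (0.088) and Chrac1 (0.092), which all have their highest level in WT CD replicate 3, at 85.5, 263 and 90.9 CPM. For Eef1g they were Med18 (0.056), Rpa2 (0.079) and Rbm15b (0.086), and for Eef2 BC005624 (0.072), H3f3a (0.087) and Snrpb2 (0.092).

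Marker genes of the tissues that normally use Eef1a2 were read beside it. The 17 skeletal muscle markers summed to 38.4 to 110 CPM in WT CD, 43.4 to 64.7 in WT HFD and 16.5 to 29.2 in HoipA-KO CD. Every HoipA-KO CD library, with Eef1a2 at 36.3 to 39.4 CPM, had a lower sum than every WT library. In HoipA-KO HFD the sum was 168, 16.3 and 24.8 CPM in replicates 1 to 3, and Eef1a2 was highest in replicate 2. Of the 13 muscle markers tested, 2 rose and 3 fell in HoipA-KO on CD, where 18.9% of all genes rose and 18.8% fell. The 9 heart markers summed to 2.78 to 18.4 CPM in WT CD, 7.54 to 9.47 in WT HFD, 2.35 to 3.68 in HoipA-KO CD and 2.04 to 8.53 in HoipA-KO HFD. The 18.4 is WT CD replicate 3, and the other WT CD libraries had at most 6.42. Nppa, a defining heart marker, was at or under the floor in all 4 groups.

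The 14 neuron markers summed to 12.7 to 94.5 CPM in WT CD, 20.6 to 30.6 in WT HFD, 125 to 138 in HoipA-KO CD and 42.7 to 126 in HoipA-KO HFD. The 94.5 is WT CD replicate 3, and the other WT CD libraries had at most 15.6. Most of the sum in HoipA-KO CD came from Uchl1, a ubiquitin hydrolase gene, which had 101, 112 and 115 CPM there, 13.1, 102 and 10.7 in HoipA-KO HFD and 3.34 to 26.1 in the WT groups. Without Uchl1 the other 13 summed to 8.16 to 68.4, 13.1 to 20.6, 22.8 to 25.5 and 23.6 to 75.0 CPM in the same order of groups. The 68.4 is again WT CD replicate 3, and the other WT CD libraries had at most 9.31. Apart from WT CD replicate 3, every HoipA-KO library was above every WT library in this sum. Th and Dbh, which define sympathetic fibres, were at or under the floor in WT HFD and in both HoipA-KO groups, and Nefl in both HoipA-KO groups. Of 12 neuron markers tested, 3 rose in HoipA-KO on CD and none fell, beside the same 18.9% and 18.8% of all genes. The 6 Schwann cell markers summed to 114 to 362 CPM in WT CD, 281 to 349 in WT HFD, 437 to 499.8 in HoipA-KO CD and 354 to 515 in HoipA-KO HFD.

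Macrophage and mast cell markers were higher in every HoipA-KO library than in every WT library. The 10 macrophage markers summed to 341 to 636 CPM in WT CD, 1650.2 to 5204 in WT HFD, 8888 to 9911 in HoipA-KO CD and 6157, 10647.6 and 8472 in HoipA-KO HFD. Of these 10 genes, 9 rose in HoipA-KO on CD, 5 on HFD and 9 with HFD in WT mice, where 18.9%, 4.2% and 9.35% of all genes rose, and none were at the floor. The 10 markers of lipid-associated macrophages, which include Mmp12, summed to 4948 to 15976.9, 13526.9 to 17166.5 and 19896.7 to 29005 CPM in the first 3 groups, and to 12827, 24829 and 14834 in HoipA-KO HFD. Most of the WT sums was Lpl, the lipoprotein lipase gene, which is an adipocyte marker too and had 4715 to 15337 CPM in WT CD and 11595 to 13057 in WT HFD. Without Lpl the other 9 summed to 233 to 639.8 CPM in WT CD, 1433 to 5571 in WT HFD, 13703 to 20047 in HoipA-KO CD, and 7219, 17761 and 7548 in HoipA-KO HFD. The 7 mast cell markers summed to 25.03 to 45.1, 32.4 to 216, 568 to 679.6 and, in HoipA-KO HFD, 319, 832 and 550.0 CPM. The pool of HoipA-KO HFD with the highest Eef1a2, replicate 2, was also the highest of that group in these 3 lists. In HoipA-KO HFD replicate 3 Eef1a2 was at 2.17 CPM against 36.3 to 39.4 in HoipA-KO CD. The macrophage sum in that pool was 8472 CPM against 8888 to 9911. Its lipid-associated macrophage sum without Lpl was 7548 CPM against 13703 to 20047. The part of these cells in the level of Eef1a2 was not tested.

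**Figure D4:**
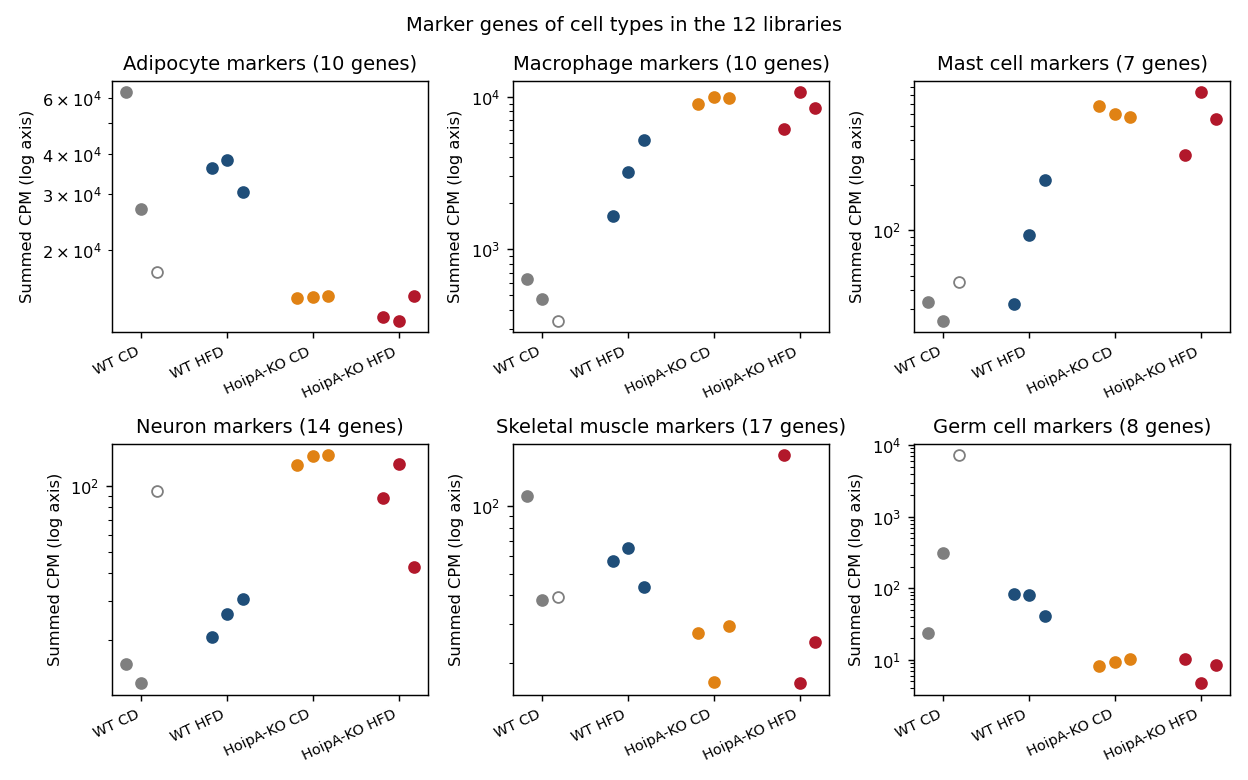
Summed CPM of 6 marker lists in the 12 libraries, on log axes, with each point a library and WT CD replicate 3 open. Macrophage and mast cell markers are higher in every HoipA-KO library than in every WT library, adipocyte and germ cell markers are lower, and skeletal muscle markers in HoipA-KO CD (16.5 to 29.2 CPM) are below both WT groups.

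The 10 adipocyte markers ran the other way, with 17131 to 62486 CPM in WT CD, 30346 to 38261 in WT HFD, 14196 to 14363 in HoipA-KO CD and 12009.6 to 14369 in HoipA-KO HFD, and 9 of the 10 fell in HoipA-KO on each diet, where 18.8% of all genes fell on CD and 7.62% on HFD. All 10 were detected above the floor in every group, in keeping with the labelled tissue. Markers of B and plasma cells summed to 137 to 299, 271 to 328, 432 to 470.4 and 367 to 477 CPM in WT CD, WT HFD, HoipA-KO CD and HoipA-KO HFD. Those of T cells summed to 7.21 to 11.7, 14.1 to 21.5, 7.34 to 25.6 and 22.7 to 25.9, and those of adipose progenitors to 765 to 1353, 2008 to 2904, 2947 to 3245 and 3817 to 3972. The 6 markers of proliferating cells summed to 22.4 to 211, 86.2 to 187, 173 to 324 and 181 to 269.9. The 211 is WT CD replicate 3, and the other WT CD libraries had at most 23.3. Of these 6 genes, 6 rose in HoipA-KO on CD and 1 on HFD, where 18.9% and 4.2% of all genes rose, and none fell. Endothelial markers summed to 358 to 1149, 877 to 1116, 363 to 519 and 411 to 627 CPM, and mesothelial ones to 53.4 to 136, 40.9 to 166, 90.8 to 206 and 71.6 to 139. Their part in the values of the elongation factor genes was not tested.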

How the data were processed

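Reads were trimmed by the authors (Trim Galore 0.6.7), aligned (STAR 2.7.10a) and turned into estimated counts per gene (Salmon 1.5.2). The labels name GRCm38 and the methods name a human assembly, and 51948 of the 55281 gene identifiers matched the mouse annotation GENCODE M21. The deposited values used here are these estimated counts, without normalization. The authors also deposited a table of protein-coding genes and DESeq2 results with fold changes and p-values for 3 comparisons, which were not used.

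Estimated counts were rounded, filtered with filterByExpr, scaled by TMM and fitted in 1 model of the 4 groups over 11 libraries (biological coefficient of variation 0.394) in R 4.3.3 with edgeR 4.0.16 and a prior count of 0.125. The quasi-likelihood test was adjusted by Benjamini-Hochberg over 18427 genes, threshold 0.05. Groups follow the labels. The diet comparisons of Eef1a2 were planned with a test, which is not given because they start from the levels that chose the gene. Pools are separate libraries, and p-values measure the spread between pools. The scripts were tested on simulated data. Alternatives were other scalings and filters, 12 libraries, only the groups compared, DESeq2 1.42.0, a replicate block, each library left out and, chosen after seeing the data, WT CD replicates 1 and 3 and a share per transcript length.

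Coding lengths and coding bases come from GENCODE M21, in place of the protein lengths first planned, and 4 of the 6 members had a RefSeq promoter. Counting intervals are Wilson or exact at 95% and cover counting error only. The genes named are the 6 members, their annotated copies with at least 1 CPM, the 3 largest rises and falls among called genes of 3 lists (elongation, modifying enzymes, mitochondrial elongation), the closest genes by pattern, and the leading genes of 16 marker lists where a value turned on them. The members and lists were chosen with earlier results of these data known, so their patterns are not independent support.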

Additional observations from a re-analysis of the deposited data

Results flagged for a closer look

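The levels of Eef1a2 by diet lay in opposite directions in the 2 genotypes, without overlap of libraries. In WT mice every HFD library was above every CD library (log2 fold change 4.39, standard error 1.39), and in HoipA-KO mice every HFD library was below every CD library (log2 fold change -1.62, standard error 0.79). Neither difference nor their contrast was tested, since the levels in WT CD and HoipA-KO CD, from which both are measured, chose the gene. HoipA-KO HFD replicate 2, at 29.9 CPM against 5.25 and 2.17 in the other pools, lies nearest to HoipA-KO CD, and without it the value in HoipA-KO mice was -3.39. No library of the groups of 3 could be examined for outlying values by a formal rule.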

How the results depend on the processing

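Depth limits Eef1a2 in WT CD to 2 or 3 counts per library, so its ratio to that group carries at least the counting error given. That interval leaves out the spread between pools. Of the values for single genes and for likeness, under the alternatives other than leaving out 1 library in turn, 328 kept their direction and, where tested, their call, 49 lost their call, 4 gained one, 1 moved and 24 changed sign. The cause was not tested. Eef1a2 by diet, given without a test, had log2 fold changes in WT of 4.24 with WT CD replicates 1 and 3 to 4.65 with the replicate block, and of 4.08 to 4.81 without 1 library. In HoipA-KO mice it had -2.22 with the replicate block, and -3.39 to -1.10 without 1 library.

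With 12 libraries, genes called between genotypes on HFD numbered 503, and the log2 fold changes that turned were 0.17 (Eef1b2) and -0.69 (Eef1d) for genotype on CD, 0.19 (Eef1a1) and -0.024 (Eef2) for diet in WT, 0.0024 (Eef1d) for diet in HoipA-KO, and -0.13 (Eef1a1) for the interaction. Of the 32 partner genes none then passed between genotypes on HFD and 2 passed between diets in WT. With WT CD replicates 1 and 3 the counts were 672 genes between genotypes on HFD and 326 for the interaction. Of the partners 5 passed on CD, 0 on HFD and 1 between diets in WT, and 1 member, Eef1b2, passed on CD. The values that turned were 0.84 (Eef1b2) and -0.99 (Eef1d) for genotype on CD, 0.49 (Eef1a1) and 0.46 (Eef1b2) for diet in WT, 0.0017 (Eef1d) for diet in HoipA-KO, and -0.43 (Eef1a1) and -0.33 (Eef1b2) for the interaction.

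With DESeq2's Wald test 4410 genes passed between genotypes on HFD, 4551 between diets in WT, 7 between diets in HoipA-KO and 2350 for the interaction, with 1 member and 6 partners on HFD and 3 partners for the interaction, and Eef2 between diets in WT had -0.040. DESeq2's size factors gave the same -0.040. With only the groups compared 4208 genes passed on CD with 3 partners, 2 members passed on HFD, 0 genes and 0 partners passed between diets in WT, Eef2 had -0.085 there and Eef1d had 0.0043 between diets in HoipA-KO. Library size in place of TMM gave 5 partners on HFD and 0.089 for Eef1d between diets in HoipA-KO. Without a filter 1 partner passed on HFD and 2 between diets in WT, Eef1g had -0.0054 on CD and Eef2 -0.069 between diets in WT. With at least 10 counts in every library these were -0.014 and -0.026, and Eef1d between diets in HoipA-KO had 0.014. Per transcript length the mean share of Eef1a2 in HoipA-KO CD was 0.561%.

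Replicate numbers came from the labels with nothing that ties them to a shared day or litter, and of 15 pairs with the same number 5 had deviations correlated above 0.1 (range -0.477 to 0.372), so they were not taken as pairs. With the replicate block 1502 genes passed between diets in WT and 377 the interaction, 1 member passed on HFD, 6 partners passed on CD and 0 between diets in WT, and Eef2 had -0.014 there.

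Leaving out each library in turn, genes called ranged from 279 (without WT HFD replicate 1) to 3797 (without WT CD replicate 2) between genotypes on HFD, from 1045 (without WT HFD replicate 3) to 5985 (without WT CD replicate 1) between diets in WT, and from 1 (without WT CD replicate 2 or HoipA-KO HFD replicate 3) to 3668 (without WT CD replicate 1) for the interaction. In the fits that kept both WT CD replicates 1 and 2, none of the members other than Eef1a2 was called. The fits without WT CD replicate 1 or 2 hold a single WT CD library. Partners called ranged from 6 (without HoipA-KO CD replicate 1) to 13 on CD, 0 to 4 on HFD, 0 to 5 between diets in WT and 0 to 2 for the interaction. Values that turned without 1 library ranged from -0.60 to 0.52 for Eef1b2 and -0.15 to 0.27 for Eef1g in genotype on CD. For diet in WT they ranged from -0.24 to 0.26 for Eef1a1, -0.98 to 0.11 for Eef1b2 and -0.18 to 0.16 for Eef2. For diet in HoipA-KO they ranged from -0.023 to 0.12 for Eef1a1, -0.084 to 0.12 for Eef1d, -0.025 to 0.14 for Eef1g and -0.036 to 0.13 for Eef2, and for the interaction from -0.21 to 0.30 for Eef1a1 and -0.11 to 0.23 for Eef2.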
